A study of Mus musculus with 12 samples.

Results

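The 32 genes described here carry sugar through the kidney in both directions: 7 of gluconeogenesis, 1 of fructose entry, 16 of glycolysis, 3 that set the level of fructose 2,6-bisphosphate, and 5 of lactate and pyruvate handling. They were taken as every array probe whose platform annotation gives one of their symbols, which found 53 probes for 29 of the 32 genes among the 45281 probes of the array. Hk2, Gpi1 and Eno1 were not analysed here, since the annotation used names no probe for them. A probe was tested where its signal lay above background on at least 6 of 12 arrays. That left 40 probes of 28 genes, out of 23963 tested probes of 12607 genes in all. Pck2, the mitochondrial phosphoenolpyruvate carboxykinase, was above background on 0 of 12 arrays and was not tested.

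Whole kidneys of male C57BL/6J mice, an inbred laboratory strain, were profiled at postnatal day 28 on Illumina bead arrays. The ethanol group held 6 offspring samples whose mothers drank 10% (v/v) ethanol freely between fertilization and gestation day 8.5, so the exposure ended before the permanent kidney begins to form. The control group held 6 samples of the same strain, sex and age. The labels repeat the ethanol protocol for the control samples and do not give the controls' own treatment, so the grouping rests on the group names. Nor do they give the dam or litter, or say that each sample is a separate animal, so each p-value speaks only of the spread among these 12 arrays, which may be technical.

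The kidney is the other gluconeogenic organ beside the liver. Cells of the proximal tubule in the cortex make glucose from lactate, glutamine and glycerol and also take up fructose, while the thick limb, distal tubule and collecting duct break glucose down by glycolysis. Opposite steps of the pathway are run by different enzymes, so that phosphoenolpyruvate carboxykinase, fructose bisphosphatase and glucose 6-phosphatase stand against pyruvate kinase, phosphofructokinase and hexokinase, with fructose 2,6-bisphosphate as the switch between them.

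Markers of the labelled tissue were present. All 7 proximal tubule markers (Slc34a1, Lrp2, Slc5a2, Slc5a12, Slc22a6, Aqp1 and Cubn) were tested, as were 7 of 8 markers of the later nephron, with Calb1 not above background anywhere. Correlations between arrays ran from 0.952 to 0.992. Ethanol samples 2 and 3 stood at one end of the first principal component of the tested probes, which held 32.6% of the variance, with scores of 45.6 and 37.5, and control sample 4 stood at the other end with -62.5. Several results that rest on these samples are given with and without them. Ethanol sample 4 and control sample 1 had the highest summed signal of 6 skeletal muscle markers, at 2225 in ethanol sample 4 and 491 in control sample 1, where the other ethanol samples lay between 188 and 200.2 and the other controls between 198 and 253. The summed signal of 5 liver markers was highest in ethanol sample 6, at 24984. It was 13650 to 17307 in the other ethanol samples and 12299 to 19338 in controls. Apoa1, a liver marker, had a log2 intensity of 11.55 in ethanol sample 6, against at most 6.23 in the other ethanol samples and 8.13 in controls. The part of this liver signal in the results was not tested.

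No gene of glucose production or breakdown was separated between ethanol and control kidneys by the test across the array. None passed an adjusted p under 0.05 (limma, Benjamini-Hochberg over all tested probes), and 0% of the 23963 tested probes did so. At an unadjusted p under 0.05, which 12.1% of all tested probes met, there were 3 of the 40 member probes, those of Pcx, G6pc3 and Hk1. All 3 were lower in ethanol, a direction that 6.81% of all tested probes took at this threshold, and none was higher, against 5.32% of all tested probes. These shares are near those of the whole array. Each member is given below by its probe with the highest mean, as log2 intensity after normalization. Of the 28 genes, 18 had a difference below 0 and 10 above it, with a median of -0.07 on the log2 scale against 0.02 over all 12607 genes. Of all 12607 genes, 5709 were below 0 and 6898 above, and of all tested probes, 48.1% were below 0 and 51.9% above. In all 40 probes the ethanol and control samples overlapped, where 0.28% of all tested probes were higher and 0.204% lower in ethanol without overlap.

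**Figure D1:**
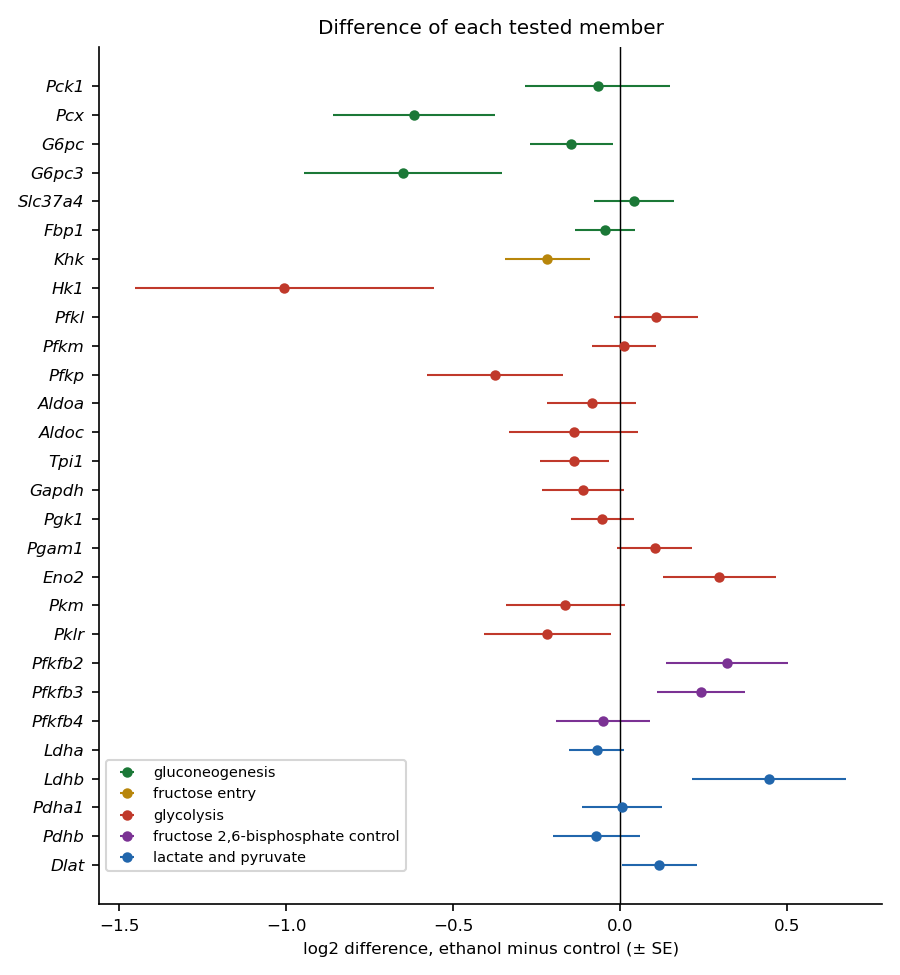
Difference in log2 intensity, ethanol minus control, for each of the 28 tested members (point, limma estimate; bar, ± SE; 6 kidneys a group), coloured by role. Hk1, G6pc3 and Pcx lie furthest below 0 at -1.01, -0.65 and -0.62, and Ldhb furthest above it at 0.45.

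Among the gluconeogenic genes, 5 of 6 tested members had a difference below 0, with a median of -0.11, and 2 of these were below the unadjusted threshold. At this threshold, 622 of all 12607 tested genes were lower in ethanol. The gene for pyruvate carboxylase, Pcx, which starts gluconeogenesis by turning pyruvate into oxaloacetate in the mitochondrion, had a lowest, median and highest log2 intensity of 8.45, 9.02 and 9.68 in ethanol kidneys and 9.10, 9.64 and 10.34 in control kidneys. It averaged 9.05 ± 0.51 in ethanol and 9.67 ± 0.43 in control kidneys (SD, n = 6 each), a log2 difference of -0.62 ± 0.24 SE (limma, adjusted p = 0.379). The median of the ethanol kidneys lay below the lowest control, but ethanol samples 1, 4 and 6 lay within the control range.

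G6pc3, the ubiquitous glucose 6-phosphatase, ran at 6.38, 7.50 and 8.25 (lowest, median, highest) in ethanol kidneys and 7.20, 8.12 and 8.61 in control kidneys. Its log2 difference was -0.65 ± 0.30 SE (limma, adjusted p = 0.405). Only ethanol samples 2 and 3 fell below the lowest control. In each of Pcx and G6pc3 the difference shrank when those 2 samples and control sample 4 were left out together, to -0.21 (limma, adjusted p = 0.915) for Pcx and -0.17 (limma, adjusted p = 0.947) for G6pc3. In both genes these were the 2 lowest ethanol kidneys and the highest control, so leaving them out had to shrink the difference. They were chosen as the ends of the first principal component, so the same applies below to members that follow that component.

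The genes most typical of renal glucose release had smaller differences, with intervals on both sides of 0. Pck1, the cytosolic phosphoenolpyruvate carboxykinase that commits the proximal tubule to gluconeogenesis, had log2 intensities of 10.88, 11.68 and 11.80 (lowest, median, highest) in ethanol kidneys and 10.80, 11.56 and 11.97 in control kidneys. The difference was -0.07 with a 95% interval of -0.53 to 0.40 (limma). G6pc, the catalytic glucose 6-phosphatase of liver and kidney, stood at 12.73, 13.08 and 13.13 in ethanol kidneys and 12.77, 13.21 and 13.43 in control kidneys, a difference of -0.15 with an interval of -0.41 to 0.12. In both genes the ranges of the groups overlapped.

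Fbp1, fructose 1,6-bisphosphatase, varied by only 0.25 on the log2 scale over all 12 kidneys. It reached 12.92, 13.03 and 13.16 in ethanol kidneys and 12.95, 13.14 and 13.16 in control kidneys, with a difference of -0.05 and an interval of -0.24 to 0.15. Slc37a4, which carries glucose 6-phosphate into the endoplasmic reticulum for the phosphatase, was the member of this role above 0, at 0.04 (interval -0.21 to 0.30). Whole kidneys were measured, so fewer cells of a type and less RNA per cell cannot be told apart.

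The start regions of Pck1 and G6pc3 are shown because these 2 genes of one role were not correlated with each other over the kidneys at the adjusted threshold (r = -0.28; permutation test, adjusted p = 0.751), as taken up below. Each is the 250 bases before the start of the gene in RefSeq, assembly GRCm38.p6, written 5′ to 3′ on the gene's strand (Pck1, chr2:173152823-173153072, plus strand, and G6pc3, chr11:102189449-102189698, plus strand). Capitals mark TTACGTCA, the cAMP response element through which fasting hormones act on Pck1, and CACGTG, an E box.
Pck1: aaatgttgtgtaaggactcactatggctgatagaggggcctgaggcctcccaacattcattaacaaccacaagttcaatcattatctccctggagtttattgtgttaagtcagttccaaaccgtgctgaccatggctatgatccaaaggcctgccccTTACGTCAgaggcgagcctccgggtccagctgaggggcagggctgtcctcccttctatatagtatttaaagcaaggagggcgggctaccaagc
G6pc3: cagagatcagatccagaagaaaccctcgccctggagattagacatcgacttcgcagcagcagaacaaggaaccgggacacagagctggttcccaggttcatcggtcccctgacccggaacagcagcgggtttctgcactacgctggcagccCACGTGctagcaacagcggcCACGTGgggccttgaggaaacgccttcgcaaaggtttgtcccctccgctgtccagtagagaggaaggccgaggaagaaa
The Pck1 element begins 93 bases before the start, and TTACGTCA was found on either strand in 0.45% of 32851 promoters searched. The G6pc3 promoter holds CACGTG at 99 and 79 bases before its start, and 6.02% of promoters hold it at least once. These matches describe the letters and do not show binding.

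Khk, ketohexokinase, phosphorylates fructose on its entry into proximal tubule metabolism. It had log2 intensities of 12.77, 12.97 and 13.41 (lowest, median, highest) in ethanol kidneys and 13.04, 13.20 and 13.47 in control kidneys. The difference was -0.22 ± 0.13 SE (limma, adjusted p = 0.495), and over the alternatives run it lay between -0.44 and -0.06. Of the 6 ethanol samples, 4 lay below the lowest control, but ethanol sample 5 only narrowly, at 13.034 against 13.038. A second probe of the gene gave -0.66 ± 0.31 SE (limma, adjusted p = 0.414).

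In glycolysis, 9 of the 13 tested members had a difference below 0 and 4 above it, with a median of -0.11. The gene for hexokinase 1, Hk1, the ubiquitous enzyme that traps glucose in the cell, had the widest spread of all members, 3.18 on the log2 scale over the 12 kidneys. Its lowest, median and highest values were 5.11, 6.47 and 7.76 in ethanol kidneys and 6.58, 7.64 and 8.29 in control kidneys. The difference of -1.01 ± 0.45 SE (limma, adjusted p = 0.402) was set partly against background, since the probe was above background in 5 of 6 ethanol samples and 6 of 6 controls. Ethanol samples 2, 3 and 5 lay below every control, and without ethanol samples 2 and 3 and control sample 4 the difference was -0.30 (limma, adjusted p = 0.944). Without background correction the same difference was -1.25.

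Pfkp, the platelet-type phosphofructokinase, ran at 7.84, 8.60 and 9.07 in ethanol kidneys and 8.60, 8.92 and 9.35 in control kidneys. Its difference was -0.38 ± 0.20 SE (limma, adjusted p = 0.464), and 3 ethanol samples, 2, 3 and 5, lay below the lowest control. Over the alternatives run this difference lay between -0.48 and -0.10. The other phosphofructokinase isoforms, liver-type Pfkl at 0.11 and muscle-type Pfkm at 0.01, had intervals that included 0. A second Pfkl probe was at 0.04, but the other tested Pfkm probes lay below 0 as Pfkp did, at -0.168 and -0.174.

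Khk and Pfkp went with Pcx and G6pc3 over all kidneys although they belong to other roles. Pearson's r for Khk was 0.81 with Pcx and 0.84 with G6pc3 (permutation test, adjusted p = 0.0376 and 0.0189). For Pfkp it was 0.89 with each (permutation test, adjusted p = 0.00567 and 0.00859). Without the kidneys at the ends of the first principal component, r for Khk was 0.42 and 0.60. For Pfkp it was 0.91 and 0.71, and only Pfkp with Pcx still passed (permutation test, adjusted p = 0.0416). Because of the correlations over all kidneys, the start regions of Khk (chr5:30921309-30921558, plus strand) and Pfkp (chr13:6648772-6649021, minus strand) are shown. They come from the same RefSeq table, with CACGTG in capitals for Khk and GCGTG for Pfkp. GCGTG and ACGTG are the core letters of the element bound by the hypoxia-inducible factors.
Khk: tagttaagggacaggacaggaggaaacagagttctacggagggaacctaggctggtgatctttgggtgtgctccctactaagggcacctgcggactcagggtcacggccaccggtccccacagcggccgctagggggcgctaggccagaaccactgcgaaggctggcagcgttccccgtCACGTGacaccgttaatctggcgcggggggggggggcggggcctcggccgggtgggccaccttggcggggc
Pfkp: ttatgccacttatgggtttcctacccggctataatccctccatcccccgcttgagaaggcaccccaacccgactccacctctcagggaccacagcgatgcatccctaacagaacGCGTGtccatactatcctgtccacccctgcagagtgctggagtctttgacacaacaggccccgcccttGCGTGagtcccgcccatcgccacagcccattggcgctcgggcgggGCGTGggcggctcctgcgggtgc
Khk holds CACGTG once, 71 bases before the start, and ACGTG lies within it on both strands. GCGTG occurs 3 times before Pfkp, at 136, 68 and 23 bases, and 28.2% of promoters hold it on either strand. ACGTG was found in 16.6% of promoters, so both are frequent.

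Pkm, the pyruvate kinase of most tissues, had log2 intensities of 11.60, 12.01 and 12.58 in ethanol kidneys and 11.99, 12.12 and 12.70 in control kidneys, a difference of -0.17 with an interval of -0.55 to 0.22 (limma). Pklr, the liver and red cell pyruvate kinase also found in the proximal tubule, was dim and differed by -0.22 (interval -0.63 to 0.19). The remaining differences were -0.14 for the aldolase gene Aldoc, -0.14 for triose phosphate isomerase Tpi1, -0.11 for Gapdh, -0.09 for the aldolase gene Aldoa and -0.05 for phosphoglycerate kinase Pgk1. Phosphoglycerate mutase Pgam1 was at 0.10 and the neuronal enolase Eno2 at 0.30 (interval -0.07 to 0.66). None of these met the unadjusted threshold.

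The bifunctional enzymes that make and remove fructose 2,6-bisphosphate, the activator of phosphofructokinase and inhibitor of fructose bisphosphatase, had a median difference of 0.24, with 2 of 3 above 0. Pfkfb3, the inducible form with high kinase activity, ran at 5.29, 5.41 and 5.65 in ethanol kidneys and 4.91, 5.13 and 5.56 in control kidneys, a difference of 0.24 ± 0.13 SE (limma, adjusted p = 0.467). It was above background in 6 of 6 ethanol samples and 3 of 6 controls, so part of this is set against background, and without background correction it came to 0.51. Pfkfb2, the form first described in heart, had values of 8.81, 9.18 and 9.45 in ethanol kidneys and 8.21, 8.94 and 9.25 in control kidneys. That was a difference of 0.32 ± 0.18 SE (limma, adjusted p = 0.490), against 0.08 without ethanol samples 2 and 3 and control sample 4. Pfkfb4 was at -0.05.

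At the exit of the pathway, 3 of 5 tested members had a difference above 0, with a median near 0. Ldhb, the lactate dehydrogenase subunit of oxidative tissue, ran at 6.96, 7.48 and 8.07 in ethanol kidneys and 6.67, 6.78 and 7.98 in control kidneys, a difference of 0.45 ± 0.23 SE (limma, adjusted p = 0.444). Control sample 4 was the one control above 7.2, and without it the difference was 0.64 (limma, adjusted p = 0.382). Ldha, the subunit of glycolytic tissue, was the steadiest member of all, with an SD of 0.06 over 12 kidneys against a median of 0.28 over all tested probes.

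Ldha reached 13.49, 13.59 and 13.67 in ethanol kidneys and 13.59, 13.67 and 13.69 in control kidneys, a difference of -0.07 with an interval of -0.25 to 0.11 (limma). Of the pyruvate dehydrogenase complex, which commits pyruvate to the citric acid cycle, the E1 subunits Pdha1 and Pdhb were at 0.00 and -0.07. The E2 subunit Dlat ran at 10.06, 10.18 and 10.35 in ethanol kidneys and 9.71, 10.15 and 10.30 in control kidneys, a difference of 0.12 ± 0.11 SE. No pyruvate gene met the unadjusted threshold.

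**Figure D2:**
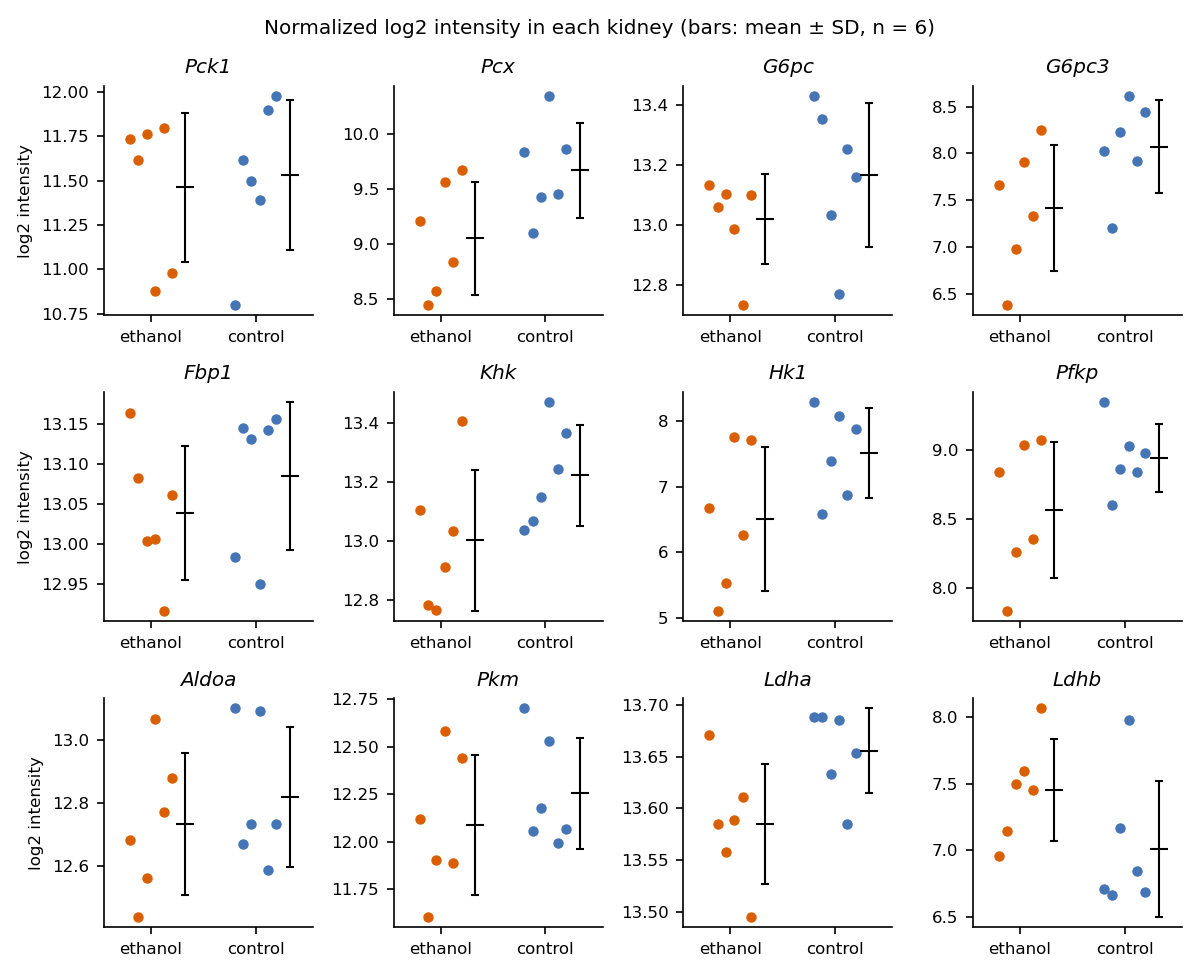
Normalized log2 intensity of 12 members in each kidney (points), with the mean and SD of the 6 ethanol and the 6 control samples (bars); each panel has its own axis. Ethanol and control points overlap in every panel, and Fbp1 and Ldha span the narrowest ranges.

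The genes of the gluconeogenic role, with the ubiquitous G6pc3 among them, were then set against the glycolytic ones within each kidney. In each kidney the median deviation of the 6 gluconeogenic genes from their own mean over 12 kidneys, minus that of the 13 glycolytic genes, averaged -0.03 ± 0.09 in ethanol and 0.07 ± 0.16 in control kidneys on the log2 scale (SD, n = 6 each). It ranged from -0.19 in ethanol sample 4 to 0.05 in ethanol sample 3, and from -0.16 in control sample 4 to 0.28 in control sample 6. The groups overlapped, and 4 of the 6 controls lay above every ethanol sample.

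The count of member probes at an unadjusted p under 0.05 depended on single kidneys. It was 0 without ethanol sample 3, 1 without ethanol sample 2 or without control sample 3, 4 or 6, 6 without ethanol sample 4, and 7 without ethanol sample 6 or control sample 2. Without ethanol sample 5 it was 2, of which 1 was lower. The share of all tested probes at this threshold moved too, from 12.1% with all 12 kidneys. It was 7.7%, 7.65% and 9.09% without ethanol sample 3, 2 or 5, and 10.2%, 11.3% and 9.35% without control sample 3, 4 or 6. Without ethanol sample 4 or 6 it was 12.3% and 15.1%, and without control sample 2 it was 15.9%. Lymphocyte markers moved in the same direction as the 3 genes, with all 5 below 0 and 4 of 5 at an unadjusted p under 0.05. Among all 12607 tested genes, 5709 were below 0 and 622 were lower at this threshold. Their summed signal was 6738 to 10121 in ethanol and 6924 to 11105 in control kidneys. Most of that sum came from 1 bright probe of Cd8b1, so it says little of the other markers. This probe had log2 means of 12.82 in ethanol and 12.94 in control kidneys, where the next brightest, of Cd52, had 8.10 and 8.51. The Cd8b1 probe differed by -0.12, and a second, dim probe of the gene by -0.84. The part of the lymphocyte markers in the result was not tested.

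Of 55 other genes of glucose, fructose, glycogen and pyruvate metabolism and its control, 47 had a probe and 39 were tested. For these, 21 differences lay below 0 and 18 above, with a median of -0.01, and none passed the adjusted threshold. At an unadjusted p under 0.05, 2 were lower and 1 higher, which are named here. For comparison, 622 of all 12607 tested genes were lower and 595 higher at this threshold. Pdk2, a kinase that switches pyruvate dehydrogenase off, was at 8.17 ± 0.55 in ethanol and 8.81 ± 0.41 in control kidneys (SD, n = 6 each; limma log2 difference -0.64, adjusted p = 0.379). Galm, galactose mutarotase, was at -0.29 (limma, adjusted p = 0.408). Creb1, the factor that binds the cAMP response element, was at 0.57 (limma, adjusted p = 0.379), but its other tested probe was at -0.25.

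Correlated pairs over the 12 kidneys were found both within a role and across roles. Of 378 pairs of members, 20 had a Pearson correlation with an adjusted p under 0.05 (two-sided permutation test with 100000 resamples, Benjamini-Hochberg over the 378 pairs), 19 positive and 1 negative. Of these, 10 were among the 106 pairs within a role and 10 among the 272 pairs across roles. All 20 kept their sign with the group means removed. For scale, 4.50% of member pairs had an r of at least 0.8 and 0.265% an r of at most -0.8, against 1.31% and 0.784% of pairs among all tested genes.

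**Figure D3:**
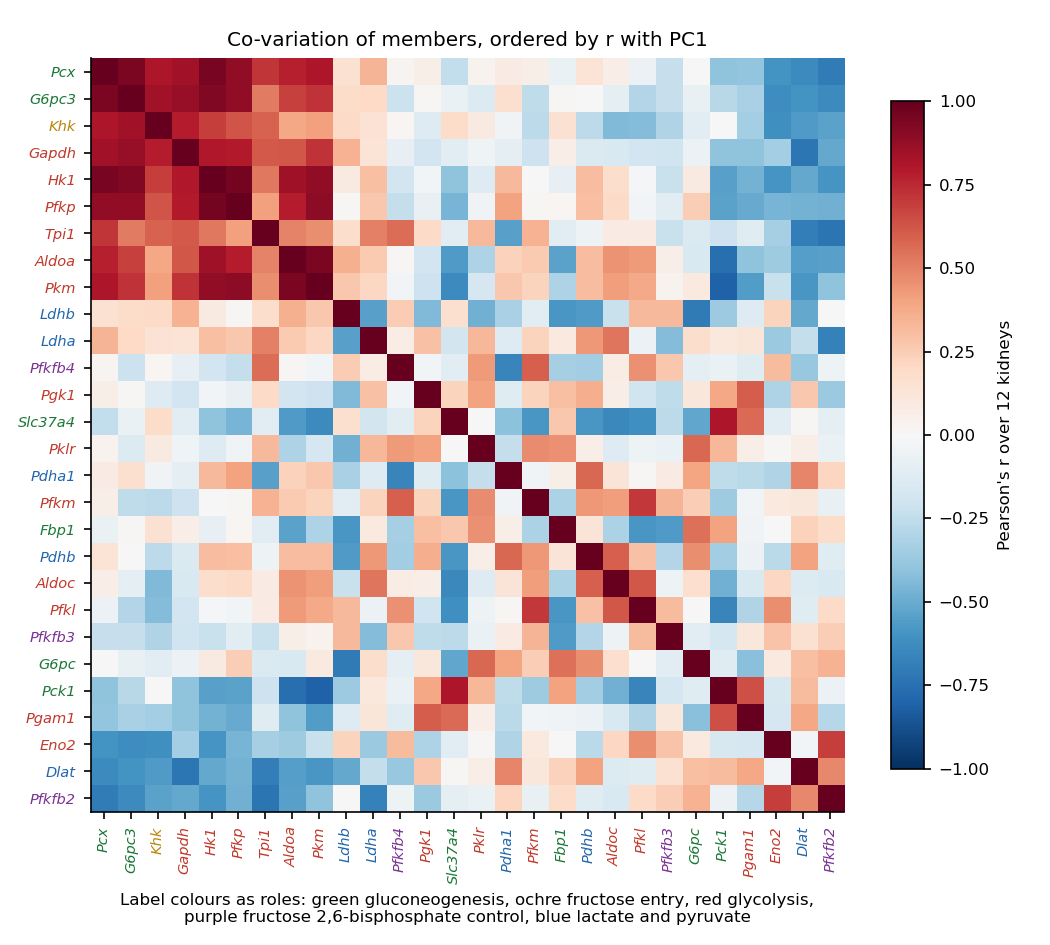
Pearson's r over the 12 kidneys for each pair of the 28 tested members, ordered by their r with the first principal component of all tested probes. The 9 members from Pcx to Pkm in the upper left corner are positively correlated with each other, with r from 0.39 to 0.96.

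The highest correlations linked Hk1 with Pfkp, at r = 0.96 and rho = 0.94 (permutation test, adjusted p = 0.00126 for r and 0.00504 for rho). Without the 2 kidneys farthest from the median of Hk1, ethanol samples 2 and 3, r was 0.91. Pcx and Hk1, a gluconeogenic and a glycolytic gene, followed at r = 0.95 and rho = 0.97 (permutation test, adjusted p = 0.00126 and 0.00378), with 0.97 when ethanol sample 2 and control sample 4 were left out. Both genes were lowest in ethanol samples 2 and 3.

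Aldoa and Pkm, glycolytic enzymes both abundant in muscle, had r = 0.94 and rho = 0.83 (permutation test, adjusted p = 0.00126 and 0.0466), and 0.91 without control samples 1 and 4. Pcx with G6pc3 had r = 0.94 and rho = 0.93 (permutation test, adjusted p = 0.00189 and 0.00756), and 0.91 without ethanol sample 2 and control sample 4. G6pc3 with Hk1 had r = 0.92 and rho = 0.87 (permutation test, adjusted p = 0.00454 and 0.0274), and Pfkp with Pkm had r = 0.89 and rho = 0.92 (permutation test, adjusted p = 0.00594 and 0.00504). Leaving out ethanol samples 2 and 3 gave r = 0.82 and 0.84 for these pairs. Ethanol sample 2 was the lowest kidney for each of these 6 genes, and control sample 4 was the highest for Pcx and G6pc3.

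Pck1, G6pc and Fbp1 were not correlated with Pcx, G6pc3, Hk1 or Pfkp at the adjusted threshold. Pck1 went with the glucose 6-phosphate carrier Slc37a4 (r = 0.81, rho = 0.78; permutation test, adjusted p = 0.00859 and 0.102) and against Pkm (r = -0.81, rho = -0.74; permutation test, adjusted p = 0.0376 and 0.127). Its correlations with G6pc and Fbp1 were r = -0.12 and 0.40, with rho = 0.13 and 0.40, and neither passed the threshold (permutation test, adjusted p for r = 0.935 and 0.573). G6pc with Fbp1 was at r = 0.55 and rho = 0.52 (permutation test, adjusted p = 0.337 and 0.441), at r = 0.02 without ethanol sample 5 and control sample 4, and at r = 0.84 without ethanol sample 4 and control sample 1, where it passed (permutation test, adjusted p = 0.0471).

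Pck1 was lowest in ethanol samples 4 and 6 and control sample 1, at 10.88, 10.98 and 10.80, and Pkm was high in the same kidneys at 12.58, 12.44 and 12.70. Ethanol sample 4 and control sample 1, the 2 farthest from the median of Pck1, are also the kidneys with the most skeletal muscle signal, and the fat markers summed highest in ethanol sample 4, at 4731 against 152 to 2412 in the other ethanol samples and 148 to 2417 in controls. Without these 2 kidneys the Pck1 and Pkm correlation was -0.61 and the Pck1 and Slc37a4 correlation 0.69, and neither passed (permutation test, adjusted p = 0.324 and 0.212), while Aldoa with Pkm was still at 0.89 (permutation test, adjusted p = 0.0238). Without ethanol samples 2 and 3 and control sample 4 r was -0.95 for Pck1 with Pkm and 0.82 for Pck1 with Slc37a4 (permutation test, adjusted p = 0.0416 each). The other low correlations, Pck1 with Aldoa at -0.75, Tpi1 with Pfkfb2 at -0.73 and Gapdh with Dlat at -0.72, did not pass (permutation test, adjusted p = 0.0813, 0.132 and 0.0653). Their rho values were -0.59, -0.48 and -0.76.

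**Figure D4:**
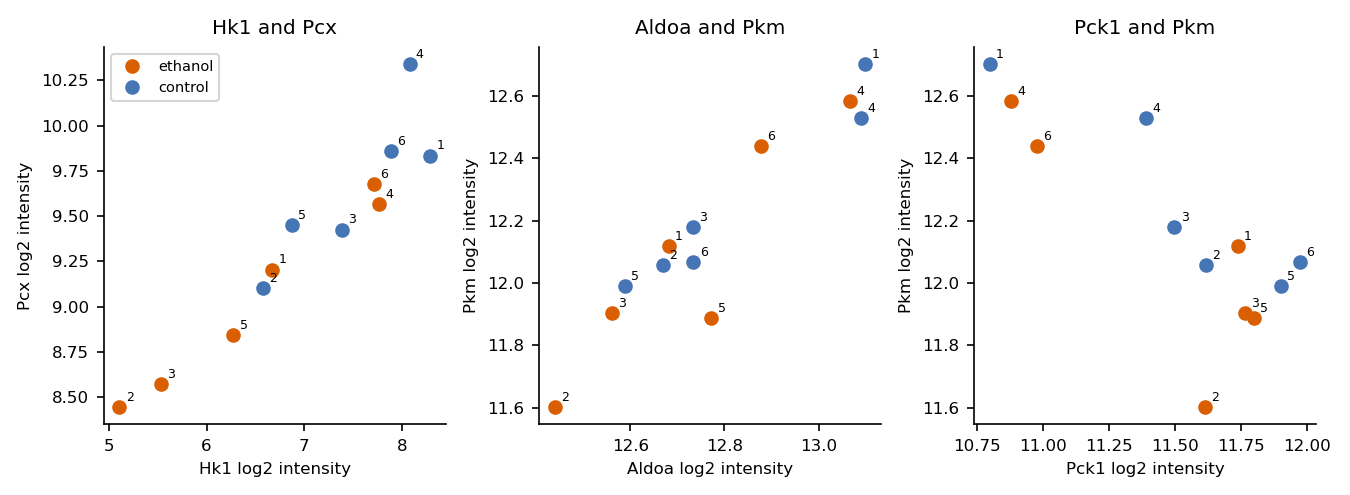
Normalized log2 intensity of 3 member pairs in the 6 ethanol and 6 control kidneys, each point numbered by its replicate. Hk1 and Pcx rise together with ethanol samples 2 and 3 at the low end, Aldoa and Pkm rise together, and Pkm is high where Pck1 is low.

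Much of this co-variation followed the main axis of variation between the arrays. In Pearson's r with the first principal component, 11 of 28 members passed an adjusted p under 0.05 (permutation test over 12 kidneys, Benjamini-Hochberg over 28 members), 9 of them negative. These were Pcx, G6pc3, Khk, Gapdh, Hk1, Pfkp, Tpi1, Aldoa and Pkm, with r between -0.95 and -0.67, and 18 of the 20 correlated pairs lay among them. Dlat and Pfkfb2 were positive at 0.70 and 0.72. By Spearman's rho 8 of the 9 also passed, with rho from -0.99 to -0.70, whereas Tpi1, Dlat and Pfkfb2 did not, at -0.58, 0.45 and 0.53 (permutation test, adjusted p = 0.136, 0.347 and 0.203). Eno2, at r = 0.62, passed by rho alone on the positive side, at 0.73 (permutation test, adjusted p = 0.0359). An r of -0.6 or below was held by 32.1% of the 28 members, against 15% of all tested genes, and an r of 0.6 or above by 10.7%, against 19.1%. Neither share was tested, and the members enter the component themselves, as 40 of 23963 probes.

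Without ethanol sample 2 and control sample 4, the 2 kidneys farthest along the axis, Aldoa, Pkm, Dlat and Pfkfb2 were at -0.40, -0.47, 0.12 and 0.38, so that their link to the axis rests largely on those kidneys, while Pcx and G6pc3 stayed at -0.91 and -0.97. The number of correlated pairs was 5 of 378 without ethanol samples 2 and 3 and control sample 4, namely Hk1 with Pfkp, Pcx with Hk1, Pcx with Pfkp, Pck1 with Slc37a4 and Pck1 with Pkm. It was 10 without ethanol sample 2 alone, 13 without ethanol sample 3 and 12 without control sample 4. Ethanol sample 2 and control sample 4, which lie at opposite ends of the axis, had the highest background level of all arrays, at 9.33 and 8.32 intensity units against -6.56 to 3.96 in the other 10, and the part of the background in this axis was not tested.

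**Figure D5:**
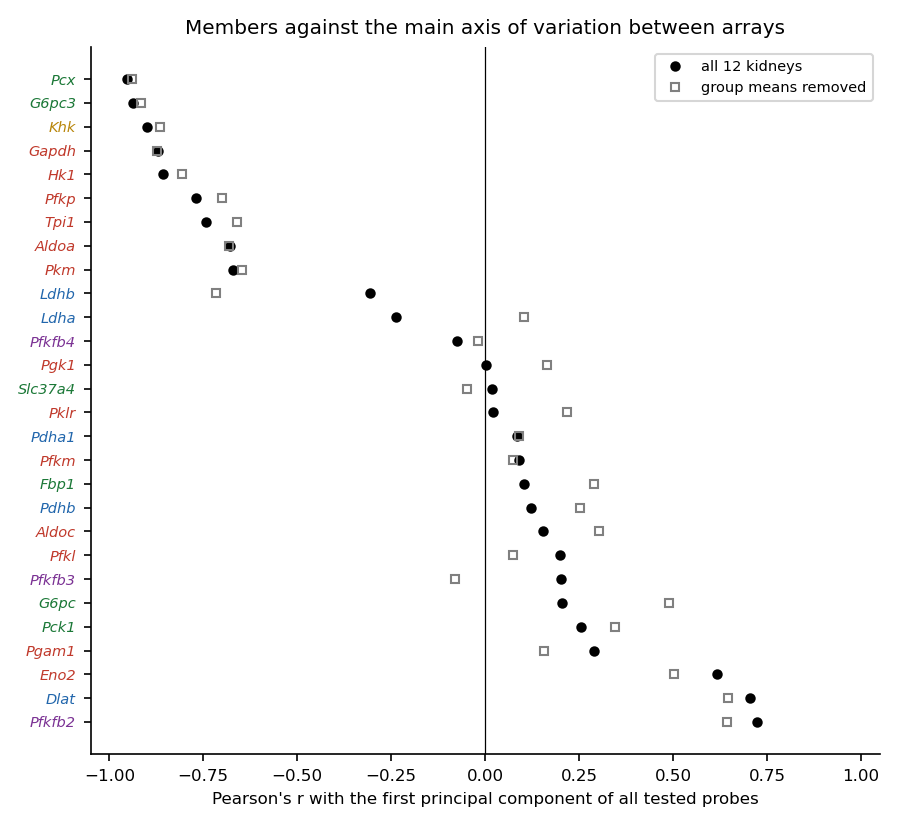
Pearson's r of each of the 28 members with the first principal component of all tested probes over 12 kidneys (filled circles), and with group means removed (open squares). The 9 members from Pcx to Pkm lie between -0.95 and -0.67, and Ldhb moves from -0.31 to -0.72 when the group means are removed.

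Probes of one gene agreed for some members only. Of the 10 members with more than 1 tested probe, Pck1 (r = 0.98), Tpi1 (0.85), Khk (0.83) and 1 of the 3 Pdhb pairs (0.82) were correlated over the 12 kidneys (permutation test, adjusted p = 0.00014, 0.00336, 0.00336 and 0.00451 over 14 probe pairs). Their rho values were 0.95, 0.80, 0.85 and 0.71, and r without the 2 farthest kidneys ran from 0.75 to 0.96. The other 10 pairs did not pass, 4 of them with an r below 0. In 6 pairs, of Pfkm, Pgk1, Pgam1 and Pdhb, the differences between ethanol and control had opposite signs. The Pfkm probes were at 0.01, -0.168 and -0.174, and the Pgam1 probes at 0.10 and -0.22. The Pgk1 probes were at -0.05 and 0.12, and the Pdhb probes at -0.07, -0.19 and 0.27. The 2 tested Pfkp probes were at -0.38 and -0.32. As a pair they did not pass, at r = 0.46 and rho = 0.73 (permutation test, adjusted p for r = 0.368). Ethanol sample 1 was the lowest kidney on the dimmer Pfkp probe, at 4.80, but was at 8.84 on the brighter. The Pfkp correlations given above rest on the brighter probe. Pcx, G6pc3 and Hk1 each rest on 1 tested probe, since their other probe was above background on 0, 3 and 4 of 12 arrays.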

How the data were processed

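Each of 12 kidney RNA samples was run on 1 Illumina array. The authors deposited background-subtracted probe intensity (linear, not log), made in GenomeStudio per the submitters' processing notes, whose version and scaling are not stated here. Between 8.16% and 33.3% of an array's values lay below 0, and median intensity ran from 14.2 to 26.2. A second table with 24 columns was not used, because its column names match no sample label. As that table's detection p-values could not be used, the background mean was taken per array as the mode of the values (kernel density, bandwidth 2, below the 0.6 quantile) and its SD from the values below the mode. Normexp correction with an offset of 16, quantile normalization and log2 followed in limma 3.58.1 (R 4.3.3). Above background means a normal probability under 0.05.

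Ethanol minus control was tested with lmFit and eBayes, and p-values were adjusted by Benjamini-Hochberg over 23963 probes. The steps were tested on simulated data. Symbols came from the platform annotation, in which 34885 probes have 1 symbol, 18 have several and 10378 have none, and those with several name no gene here. A gene is represented by its tested probe with the highest mean, and levels are not compared between probes. Correlations used Python 3.11.15 and numpy 2.4.6 with 100000 permutations. Promoters were matched by symbol for 32 of 32 members, 20 with a single start. The members, gene lists and rules for naming genes were chosen with earlier results of these data known: members with an unadjusted p under 0.05, the 2 with the smallest p in each role, and Pck1, G6pc, Fbp1, Khk, Hk1, Hk2, Pkm and Ldha are given with their values, and the 6 highest and 4 lowest correlated pairs are named. Alternatives covered background correction, scaling, filter, array weights, variance prior, replicate block, probe choice and samples left out. The number of arrays limits the precision.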

Additional observations from a re-analysis of the deposited data

Results flagged for a closer look

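In 6 of the 56 groups of 6 kidneys examined, 1 kidney lay far from the other 5 by Dixon's criterion (gap over range above 0.625), and chance alone marks about 1 in 20 groups. G6pc was lowest in ethanol sample 5, at 12.73 on the log2 scale where the other ethanol kidneys lay between 12.99 and 13.13. Pgam1 was lowest in ethanol sample 6, at 9.97 against 10.28 to 10.45. Among the controls, the glucose 6-phosphate carrier gene Slc37a4 was lowest in sample 1, at 10.45 against 10.90 to 11.12, the kidney in which Pck1 was also lowest. Tpi1 was highest in control sample 4, at 14.48 against 14.03 to 14.15. Eno2 was lowest in control sample 6, at 5.38 against 6.05 to 6.41, and Pklr in control sample 3, at 5.09 against 5.77 to 6.06.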

How the results depend on the processing

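No member passed an adjusted p under 0.05 under any of the alternatives run. Over all tested probes the count was 0 under each except with the deposited values as they stand, where it was 1, a probe of no member. Of the 40 member probes, 3 were at an unadjusted p under 0.05, all lower in ethanol. The deposited values as they stand gave 1, which was lower, where 9.24% of all tested probes met this threshold. Array quality weights gave 8, of which 7 were lower and 1 higher, where 16.7% of all tested probes met it. Without the filter 1 was higher. Leaving out single kidneys gave 0 to 7 in all, 0 to 7 lower and 0 to 1 higher, while the share of all tested probes ran from 7.65% to 15.9%. Without ethanol samples 2 and 3 and control sample 4 there was 1, with 0 lower and 1 higher, against 5.98% of all tested probes. The glycolysis median was then 0.0057 in place of -0.11. Leaving out ethanol sample 4 and control sample 1, an alternative chosen after seeing the data, gave 1 higher, with 9.29% of all tested probes at the threshold in either direction. Pcx, G6pc3 and Hk1 stayed below 0 in every alternative in which they were tested (Hk1 not under the strict filter), at -0.74 to -0.21, -0.83 to -0.17 and -1.26 to -0.30. Pdha1 changed sign in 8 of 24 alternatives, Pck1 in 5 and Pfkm in 4. Of the 378 pairs, 20 were correlated, against 13 with the strict filter, 12 by Spearman rank correlation, 5 without ethanol samples 2 and 3 and control sample 4, and 10 to 24 with single kidneys left out. The cause of these shifts was not tested.

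The groups share replicate numbers 1 to 6. With the replicate number as a block, 6 member probes were at an unadjusted p under 0.05, 5 lower and 1 higher, and 0 passed the adjusted threshold. Of all tested probes, 14.8% were at the unadjusted threshold with this block. Correlations of same-numbered deviations were 0.00, 0.46, 0.07, 0.05, 0.07 and 0.02, and 1 of 6 ethanol samples correlated best with its own number, so the numbers were not taken to pair the samples.

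Dim probes, such as those of Hk1, Pfkfb3 and Pklr, depend most on the background, which was estimated without negative control probes.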

Other observations

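Other transport and segment genes gave values beside those of the sugar enzymes. Slc5a2, the glucose carrier of the early proximal tubule, averaged 9.08 in ethanol and 9.94 in control kidneys, a log2 difference of -0.86 (limma, adjusted p = 0.419). The other proximal tubule markers, each by its probe with the highest mean, lay between -0.04 and 0.17. However, the other tested Aqp1 probes were at -0.22 and -0.53 (limma, adjusted p = 0.572 and 0.386). Second tested probes of Lrp2 and Slc5a12 were both at 0.16, and that of Slc22a6 lay near 0. Nphs1, a podocyte gene, differed by -0.47 (limma, adjusted p = 0.411), but the other tested podocyte markers Podxl and Synpo were at 0.03 and 0.12. Aqp3, a water channel of the collecting duct, differed by -0.38 (limma, adjusted p = 0.407). Aqp2, another such channel, was at -0.39, and its second probe at -0.92 (limma, adjusted p = 0.560 and 0.390). Of the 7 tested markers of the later nephron 3 were below 0 and 4 above, with Slc12a1 at 0.31 and Atp6v1b1 at 0.28. A second Atp6v1b1 probe was at -0.20. Across 10178 genes with a promoter, the GC content of the promoter and the r of the gene with the first principal component had a Spearman rho of 0.01, a description across genes, which are not independent replicates.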
